A study of Mus musculus with 4 samples.

Results

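Type I interferon-stimulated genes were examined in alveolar macrophages (AM), the resident phagocytes of the airspaces, of WT and *Trem-2*-/- mice. TREM-2 is a myeloid surface receptor, and the arrays address how its loss alters the transcriptome of AM. The list held 39 names, from the interferon receptor chains through STAT and IRF transcription factors to antiviral effectors, and a gene was taken as a member where a probe set of the array is annotated with its symbol alone. This gave 36 members among 19946 genes. *Isg15* and *Oas1g* share their probe sets with another gene and *Ifi44* had no probe set named for it in the annotation used, so these 3 have no value here. Of the genes that mark the list, *Ifit1* and *Irf7* were therefore measured and *Isg15* was not.

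AM were collected by bronchoalveolar lavage, with no treatment listed, from mice of 8 to 10 weeks. The controls were C57/Blk6 WT mice, and the TREM2-/- line had been backcrossed 10 times to that strain. The paper states that the WT mice were purchased and that all mice were bred in the same facility. Loss of TREM-2 therefore cannot be told apart from other differences between the lines, such as donor sequence kept through the backcross. RNA was hybridized to 4 Affymetrix mouse gene arrays, 2 per genotype, each with AM of pooled mice. How many mice made up a pool, and whether both pools of a genotype held different mice, is not stated in the labels or methods, and p-values therefore measure array-to-array spread that could be technical. Values are log2 levels after robust multi-array average (RMA) normalization, and the small number of arrays limits their precision. An exact two-sided permutation test of a single gene cannot go below p = 0.333 with this design.

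Type I interferons are cytokines made when a cell senses foreign or misplaced nucleic acid. They bind a receptor of the chains IFNAR1 and IFNAR2, whose kinases signal to transcription factors that include STAT2 and IRF9. These act at interferon-stimulated response elements (ISRE) in promoters and switch on antiviral genes, among them the sensors and IRF7 that amplify a later response.

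The labels were checked on the targeted gene, and *Trem2* had log2 values of 9.58 and 9.74 in WT AM and 7.64 and 7.45 in *Trem-2*-/- AM. None of the 36 members passed the comparison of genotypes at an adjusted p below 0.05 (limma, Benjamini-Hochberg adjustment over 19946 genes). Over all genes, 0.431% were called higher and 0.135% lower in *Trem-2*-/- AM. At an unadjusted p below 0.05, limma gave 10 members higher (*Ifit1*, *Rtp4*, *Oas1a*, *Irf1*, *Dtx3l*, *Parp14*, *Oasl2*, *Mx2*, *Zbp1* and *Ifi35*) and 1 lower (*Oas1b*), against 4.64% and 6.9% of all genes. Significance analysis of microarrays (SAM), the test named in the study's methods, called *Ifit1* and *Rtp4* higher. Limma with an intensity trend and robust variance called *Irf1*, *Parp14* and *Dtx3l* besides these. Of all 19946 genes, SAM called 177 higher and 19 lower, and the trend setting called 379 higher and 290 lower.

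The log2 fold change was above 0 for 29 of the 36 members, where 42.7% of all genes lay above 0. *Ifit3*, *Cmpk2* and *Mx1*, all close to 0, changed sign when the arrays were quantile normalized. This put 32 members and 47.8% of all genes above 0. The members' median was 0.13, within a range from −0.26 to 0.63, and the median of all genes was −0.021. The list was chosen with earlier results known and has no test of its own, so these counts and medians are descriptions.

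**Figure D1:**
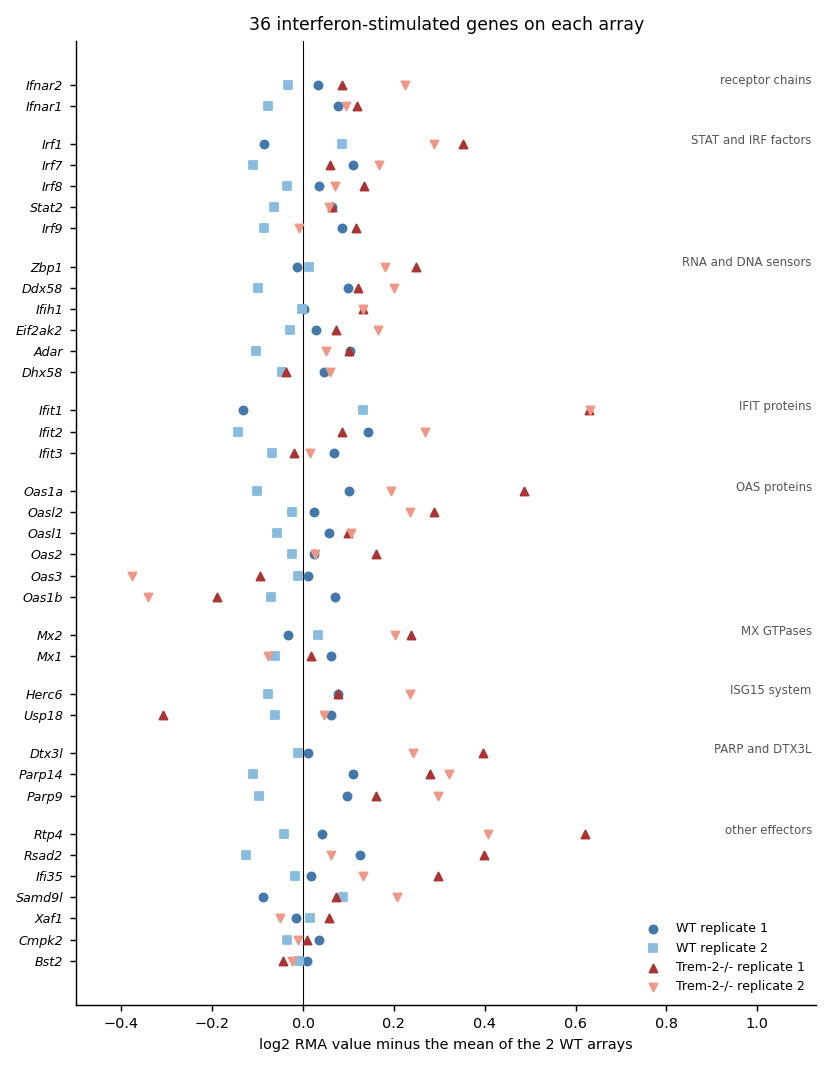
Log2 RMA value of each of 36 interferon-stimulated genes on each array, minus the mean of the 2 WT arrays, with genes grouped by role. The *Trem-2*-/- arrays lie above both WT arrays for 20 genes, below both for 3 and overlap with them for the others.

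The largest difference was in *Ifit1*, whose product binds the ends of viral RNA. *Ifit1* had log2 values of 4.29 and 4.55 in WT AM and 5.05 on both arrays in *Trem-2*-/- AM. The WT values lay below the lower quartile of the genes on their arrays and the *Trem-2*-/- values above it, without overlap. The log2 fold change was 0.63 ± 0.10 (SE, limma adjusted p = 0.0868), a 1.55-fold higher signal with a 95% interval of 0.38 to 0.88 on the log2 scale.

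*Rtp4*, which encodes a receptor transporter protein with antiviral activity, came next. *Rtp4* had 5.75 and 5.67 in WT AM and 6.33 and 6.12 in *Trem-2*-/- AM, and the groups did not overlap. Its log2 fold change was 0.51 ± 0.096 (SE, limma adjusted p = 0.122), with a 95% interval of 0.28 to 0.75.

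The other IFIT genes had overlapping arrays. *Ifit2* had 4.99 and 4.70 in WT AM and 4.94 and 5.12 in *Trem-2*-/- AM. *Ifit3* had 4.98 and 4.85 in WT AM and 4.89 and 4.93 in *Trem-2*-/- AM. Their log2 fold changes were 0.18 (95% interval −0.11 to 0.47) and −0.0013 (95% interval −0.20 to 0.19). Whether these differ from the value of *Ifit1* was not tested. *Ifit3* lay near the lower quartile of the genes (4.84 to 4.925 by array), where a difference may not be detectable.

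Promoter windows of *Ifit1* and *Ifit3* are shown because they set the gene with the largest difference beside one whose value was near 0. Both hold the ISRE core GAAANNGAAA in 2 copies, in capitals, read as its reverse complement since it lies on the opposite strand. The copies start 104 and 85 bases before the start site of *Ifit1* and 156 and 122 bases before that of *Ifit3*. The windows are from RefSeq (GRCm38.p6, plus strand), at chr19:34640765-34640833 and chr19:34583353-34583436.
Ifit1: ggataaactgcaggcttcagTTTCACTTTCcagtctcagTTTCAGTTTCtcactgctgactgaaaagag
Ifit3: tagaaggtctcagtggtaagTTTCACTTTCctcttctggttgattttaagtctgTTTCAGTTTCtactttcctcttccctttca

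Both receptor chains were slightly higher on the *Trem-2*-/- arrays. *Ifnar1* had 9.89 and 9.74 in WT AM and 9.93 and 9.91 in *Trem-2*-/- AM. *Ifnar2* had 10.10 and 10.04 in WT AM and 10.16 and 10.30 in *Trem-2*-/- AM. The groups did not overlap for either chain, but the gap between them was smaller than the distance between the WT arrays. The log2 fold changes were 0.11 (95% interval −0.096 to 0.31) and 0.15 (95% interval −0.046 to 0.36), with adjusted p of 0.684 and 0.542 in limma.

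Among the transcription factors the largest value was that of *Irf1*, an early factor induced by interferons of both types. *Irf1* had 9.42 and 9.59 in WT AM and 9.85 and 9.79 in *Trem-2*-/- AM, without overlap, and a log2 fold change of 0.32 ± 0.087 (SE, limma adjusted p = 0.266). A second, dimmer probe set of *Irf1* gave 0.082 with overlapping arrays. *Irf1* is known to be controlled through the interferon-gamma activated site (GAS). Its promoter window is shown for the GAS core TTCNNNGAA, in capitals, 90 bases before the start site at chr11:53769904-53769952 (RefSeq, GRCm38.p6, plus strand).
Irf1: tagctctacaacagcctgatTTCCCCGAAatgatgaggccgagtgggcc

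*Irf7*, the factor that amplifies interferon production, had 6.96 and 6.74 in WT AM and 6.91 and 7.02 in *Trem-2*-/- AM, and WT replicate 1 lay between the *Trem-2*-/- arrays. Its log2 fold change was 0.11 (95% interval −0.13 to 0.35). *Stat2* and *Irf9*, subunits of the complex that binds the ISRE, had log2 fold changes of 0.060 and 0.054, and *Irf8*, a factor of myeloid identity, had 0.10. The 95% intervals of these 4 genes all spanned 0.

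The 6 sensors and RNA-binding enzymes all had log2 fold changes above 0, with a median of 0.13. *Zbp1*, a sensor of Z-form nucleic acid, had 7.24 and 7.27 in WT AM and 7.50 and 7.43 in *Trem-2*-/- AM, without overlap. Its log2 fold change of 0.22 ± 0.073 (SE, limma adjusted p = 0.356) was the largest of the 6. *Ifih1*, encoding the double-stranded RNA sensor MDA5, had 9.19 on both arrays in WT AM and 9.33 and 9.32 in *Trem-2*-/- AM. Its arrays lay closer together within a genotype than those of the other sensors, at a log2 fold change of 0.13 (95% interval −0.039 to 0.30). *Ddx58*, encoding the RNA sensor RIG-I, had 0.16 and *Dhx58*, encoding its relative LGP2, had 0.011. The RNA-activated kinase gene *Eif2ak2* had 0.12 and the RNA-editing enzyme gene *Adar* had 0.075.

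The OAS genes, whose products make or resemble makers of the oligoadenylates that activate RNase L, lay in both directions. *Oas1a* had 7.24 and 7.04 in WT AM and 7.62 and 7.33 in *Trem-2*-/- AM, so both *Trem-2*-/- values were higher although the arrays of each genotype were widely spaced. *Oasl2* had 6.28 and 6.23 in WT AM and 6.54 and 6.49 in *Trem-2*-/- AM, with arrays close together in each genotype. The log2 fold changes were 0.34 ± 0.12 (SE, limma adjusted p = 0.385) for *Oas1a* and 0.26 ± 0.073 (SE, limma adjusted p = 0.274) for *Oasl2*.

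Lower values were measured for *Oas1b*, which carries a premature stop codon in C57BL/6 and most other laboratory strains, and for *Oas3*. *Oas1b* had 4.94 and 4.80 in WT AM and 4.68 and 4.53 in *Trem-2*-/- AM. Except on WT replicate 1, *Oas1b* lay below the lower quartile of the genes, where signal is weak. *Oas3* had 6.14 and 6.12 in WT AM and 6.04 and 5.76 in *Trem-2*-/- AM. Neither gene overlapped between genotypes, but *Trem-2*-/- replicate 1 of *Oas3* lay nearer to the WT arrays than to *Trem-2*-/- replicate 2. The log2 fold changes were −0.26 ± 0.092 (SE, limma adjusted p = 0.367) and −0.24 ± 0.11 (SE, limma adjusted p = 0.472). *Oas2* and *Oasl1* had 0.093 and 0.10, with 95% intervals that spanned 0.

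*Oas1a* and *Oas3* are shown because an ISRE core stood before genes with values of either sign. The core is in capitals, in overlapping copies 20 and 14 bases before the start site of *Oas1a* and once, 75 bases before the start, in *Oas3*. The windows lie at chr5:120907526-120907565 and chr5:120777705-120777754 (RefSeq, GRCm38.p6, minus strand).
Oas1a: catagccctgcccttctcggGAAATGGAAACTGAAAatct
Oas3: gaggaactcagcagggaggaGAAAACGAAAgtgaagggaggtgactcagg

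*Parp14*, *Dtx3l* and *Parp9* lie next to each other on chromosome 16. DTX3L is a ubiquitin ligase that works as a pair with PARP9, and PARP14 is an ADP-ribosyltransferase. *Dtx3l* had 8.70 and 8.67 in WT AM and 9.08 and 8.93 in *Trem-2*-/- AM. *Parp14* had 9.55 and 9.34 in WT AM and 9.72 and 9.77 in *Trem-2*-/- AM. *Parp9* had 8.26 and 8.06 in WT AM and 8.32 and 8.46 in *Trem-2*-/- AM. All 3 genes were higher on both *Trem-2*-/- arrays than on either WT array. Their log2 fold changes were 0.32 ± 0.083 (SE, limma adjusted p = 0.248), 0.30 ± 0.095 (SE, limma adjusted p = 0.335) and 0.23 ± 0.098 (SE, limma adjusted p = 0.453).

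Of the other neighbouring members, *Ifnar1* and *Ifnar2*, with 1 gene between them, and *Oasl1* and *Oasl2* had log2 fold changes of the same sign, given above. *Rsad2*, encoding the antiviral enzyme viperin, had 5.29 and 5.04 in WT AM and 5.56 and 5.22 in *Trem-2*-/- AM, with overlap, and a log2 fold change of 0.23 (95% interval −0.11 to 0.57). *Cmpk2*, the nucleotide kinase gene next to it on chromosome 12, had −0.0011 (95% interval −0.18 to 0.18). *Oas2* and *Oas3*, neighbours on chromosome 5, had opposite signs. Differences between neighbours were not tested.

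Of the MX genes, which encode dynamin-like antiviral GTPases, *Mx2* had 3.81 and 3.87 in WT AM and 4.08 and 4.04 in *Trem-2*-/- AM, without overlap, and a log2 fold change of 0.22 ± 0.073 (SE, limma adjusted p = 0.348). *Mx1*, which carries a large deletion in C57BL/6 and most other inbred strains, had −0.030, and its sign depended on the normalization. Both lay below the lower quartile of all probe sets on every array, where differences may not be detectable.

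In the ISG15 system, which attaches a ubiquitin-like protein to other proteins, the ligase gene *Herc6* had 0.16 (95% interval −0.072 to 0.38). *Usp18*, which removes ISG15 and dampens the receptor, had 5.06 and 4.94 in WT AM and 4.69 and 5.05 in *Trem-2*-/- AM, so that *Trem-2*-/- replicate 1 alone lay low. The log2 fold change of *Usp18* was −0.13 (95% interval −0.44 to 0.18).

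Among the remaining effectors, *Ifi35*, a partner of the interferon-induced protein NMI, had 7.40 and 7.36 in WT AM and 7.68 and 7.51 in *Trem-2*-/- AM, without overlap, and a log2 fold change of 0.21 ± 0.085 (SE, limma adjusted p = 0.416). *Samd9l*, a poxvirus restriction factor, had 0.14, and *Xaf1*, a regulator of apoptosis, had 0.0035. *Bst2*, encoding tetherin, which holds budding virus at the cell surface, had 8.13 and 8.11 in WT AM and 8.08 and 8.10 in *Trem-2*-/- AM. Its log2 fold change was −0.034 (95% interval −0.20 to 0.14), and both *Trem-2*-/- arrays lay just below both WT arrays. Its promoter window is shown as a case with ISRE cores and a value near 0. The overlapping cores, in capitals, start 130 and 124 bases before the start site, at chr8:71537567-71537622 (RefSeq, GRCm38.p6, minus strand).
Bst2: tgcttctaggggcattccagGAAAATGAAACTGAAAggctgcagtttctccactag

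**Figure D2:**
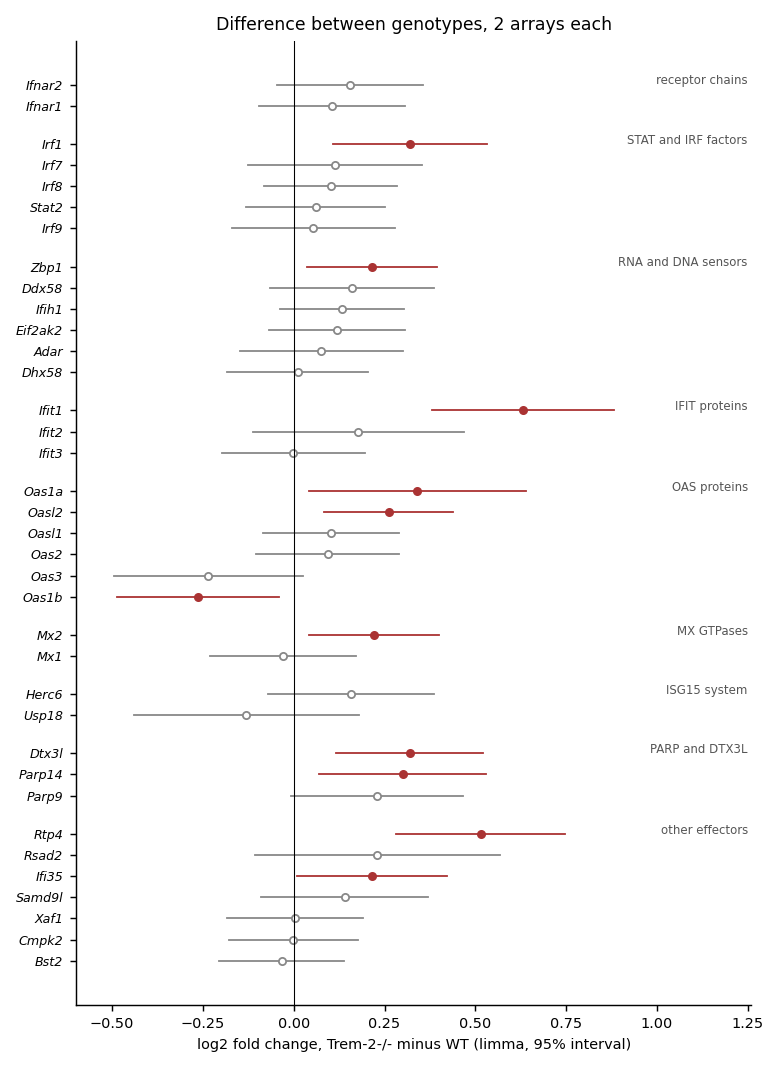
Log2 fold change between *Trem-2*-/- and WT AM for each of the 36 genes, from limma with 2 arrays per genotype, with bars for 95% intervals, red filled points for an unadjusted p below 0.05 and grey open points for the others. *Ifit1* is highest at 0.63 and *Oas1b* lowest at −0.26.

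The 95% interval of 33 of the 36 members lay within a 1.5-fold difference in either direction (0.585 on the log2 scale). Over all genes this held for 19053 of 19946. The intervals of *Ifit1*, *Rtp4* and *Oas1a* reached beyond it, all upward, and no interval is corrected for multiple testing. Both *Trem-2*-/- arrays lay above both WT arrays for 20 members and below them for 3 (*Oas1b*, *Oas3* and *Bst2*), where 17.4% of all genes were above and 25.4% below. By role, the 20 were both receptor chains, *Irf1* and *Irf8* of 5 transcription factors, 4 of 6 sensors, *Ifit1*, 4 of 6 OAS genes, *Mx2*, *Herc6*, the 3 genes of the PARP and DTX3L group, *Rtp4* and *Ifi35*.

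The members also differed between the WT arrays. WT replicate 1 was above WT replicate 2 for 30 of the 36 members, against 52.9% of all genes, and the other 6 were *Irf1*, *Ifit1*, *Mx2*, *Xaf1*, *Zbp1* and *Samd9l*. WT replicate 2 was the lowest of the 4 arrays for 25 members and the highest for 0, while for all genes it was the lowest for 24.5% and the highest for 27.6%. From its own mean over the 4 arrays, a member deviated by a median of −0.0086 on WT replicate 1, −0.10 on WT replicate 2, 0.052 on *Trem-2*-/- replicate 1 and 0.060 on *Trem-2*-/- replicate 2. Without WT replicate 2 the members' median log2 fold change was 0.068, with 25 of 36 above 0 against 43.5% of all genes. Without WT replicate 1 it was 0.18. When each array was left out in turn, the log2 fold changes of *Ifit1*, *Rtp4*, *Irf1*, *Dtx3l*, *Oasl2*, *Oas1b*, *Mx2*, *Zbp1*, *Ifih1* and *Bst2* stayed within 1.5 times the value from all arrays, 17 members moved further without a change of sign and 9 changed sign. Among the 17, *Irf7* fell to 0.0041 and *Ifit2* to 0.034 without WT replicate 2, *Oas1a* to 0.19 and *Rsad2* to 0.0605 without *Trem-2*-/- replicate 1, and *Oas3* had −0.094 without *Trem-2*-/- replicate 2. The part of WT replicate 2 in the members' differences was not tested.

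**Figure D3:**
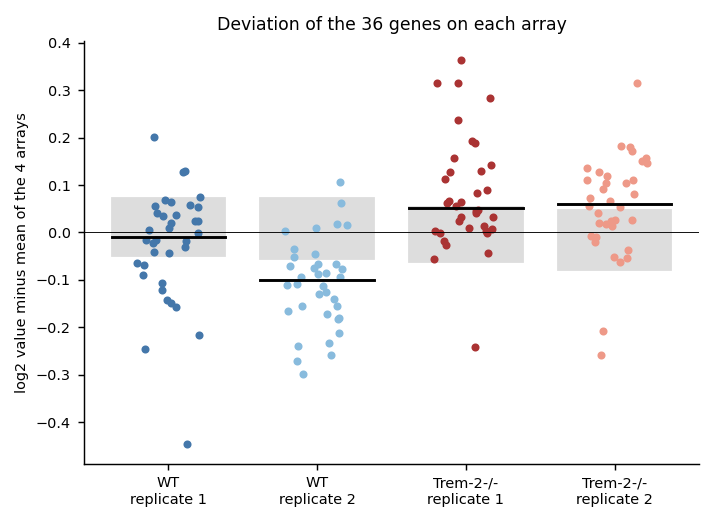
Deviation of each of the 36 genes from its own mean over the 4 arrays, in log2 units, by array, with bars for the members' medians and grey boxes for the quartile range of all 19946 genes. The members of WT replicate 2 sit lowest, at a median of −0.10, and those of the *Trem-2*-/- arrays at 0.052 and 0.060.

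RefSeq windows of 300 bases, from 250 before to 50 after a start site, were found for 26 of the 36 members, with 32 windows in all. The ISRE core GAAANNGAAA, on either strand, was in 31.2% of these windows and in 3.44% of all 32851 windows. The GAS core TTCNNNGAA was in 31.2% and 8.3%, and in *Bst2* the letters of both cores overlap. The 10 members with an ISRE core had log2 fold changes from −0.24 to 0.63 and the 16 without from −0.0011 to 0.32, each with a median of 0.13. A match is a run of letters, not a site shown to be bound.

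Other genes of the interferon pathway were taken from a list that was also drawn up with earlier results known, of which 93 of 107 were measured. *Cxcl10* and *Ifitm3* were called higher and 0 lower by limma, against 0.431% and 0.135% of all genes. At an unadjusted p below 0.05 in limma there were 14 higher and 5 lower, against 4.64% and 6.9% of all genes. The median log2 fold change of the 93 was 0.065. *Cxcl10*, an interferon-induced chemokine for T cells, had 6.29 and 6.18 in WT AM and 7.32 and 7.47 in *Trem-2*-/- AM and a log2 fold change of 1.16 ± 0.088 (SE, limma adjusted p = 0.00696). *Ifitm3*, which blocks the entry of enveloped viruses, had 5.41 and 4.73 in WT AM and 7.14 and 7.51 in *Trem-2*-/- AM and a log2 fold change of 2.26 ± 0.23 (SE, limma adjusted p = 0.0197). Neither gene overlapped between genotypes. *Ifitm1* and *Ifitm2*, relatives of *Ifitm3*, had −0.011 and 0.14 and did not pass. Without *Trem-2*-/- replicate 1 a single gene of the list was called, and without *Trem-2*-/- replicate 2 none was.

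The genes for the interferons themselves gave no call in limma. Of 14 measured ligands 7 lay above 0 and 7 below, with a median log2 fold change of 0.021, where 42.7% of all genes lay above 0. *Ifnb1*, encoding interferon beta, had 4.34 and 4.09 in WT AM and 4.39 and 4.19 in *Trem-2*-/- AM, and *Ifna11*, for an interferon alpha, had 2.998 and 3.270 in WT AM and 2.670 and 2.901 in *Trem-2*-/- AM. Both lay below the lower quartile of all probe sets on every array, where a difference may not be detectable. *Ifnl2*, *Ifnab* and *Ifna14* had −0.21, −0.19 and −0.17, each with overlapping arrays. Of 12 signalling genes none was called either. The receptor kinase genes *Jak1* and *Tyk2* had 0.049 and −0.014, and *Socs3*, a feedback inhibitor, had 0.41 ± 0.14 (SE, limma adjusted p = 0.350). *Irf3*, *Socs1* and *Irf2bp1* followed with 0.14, −0.12 and 0.086.

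Of 15 nucleic acid sensing genes 14 lay above 0, against 42.7% of all genes, and none was called. *Ikbke*, a kinase of IRF factors, had 9.56 and 9.45 in WT AM and 10.09 and 10.00 in *Trem-2*-/- AM, without overlap. Its log2 fold change was 0.54 ± 0.082 (SE, limma adjusted p = 0.0700). The RNA-editing enzyme gene *Adarb1* had 0.25, *Tlr7* and *Tlr8*, for endosomal receptors, had 0.23 and 0.17, and the DNA-sensing genes *Sting1* and *Cgas* had 0.10 and 0.016. Among 52 further interferon-stimulated genes, *Ifi203*, *Ifi205* and *Slfn8* had 0.74, 0.55 and 0.51 and did not pass, with adjusted p of 0.157, 0.282 and 0.101 in limma. Of the 52, 33 lay above 0 and 19 below. Both *Trem-2*-/- arrays lay above both WT arrays for 21 and below them for 8, against 17.4% and 25.4% of all genes. The lowest log2 fold change was −0.31 for *Slfn5* (limma adjusted p = 0.336), without overlap.

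The GTPases induced mainly by interferon gamma had a median log2 fold change of 0.22 over 10 measured genes of 17, and 2 were called, both higher. The median of all genes was −0.021, and 0.431% of all genes were called higher and 0.135% lower. *Gbp5* had 5.204 and 5.001 in WT AM and 5.993 and 6.001 in *Trem-2*-/- AM and a log2 fold change of 0.89 ± 0.091 (SE, limma adjusted p = 0.0197). *Gbp3* had 7.32 and 7.10 in WT AM and 7.90 and 7.91 in *Trem-2*-/- AM and a log2 fold change of 0.70 ± 0.093 (SE, limma adjusted p = 0.0485). Both encode guanylate-binding proteins that act on intracellular pathogens, and neither overlapped between genotypes. Whether these genes differ from the 36 members was not tested.

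**Figure D4:**
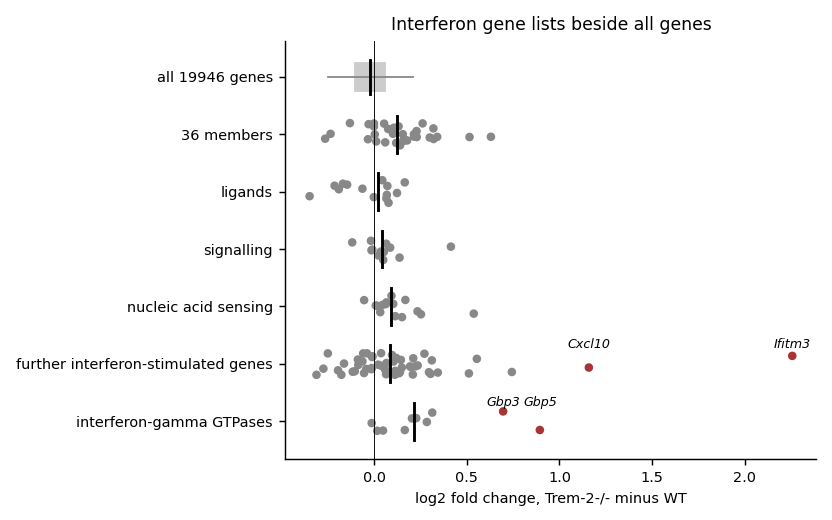
Log2 fold change between *Trem-2*-/- and WT AM for all genes (box for quartiles) and for each measured gene of the interferon lists, with black bars for medians and red points for genes called by limma. *Ifitm3* at 2.26, *Cxcl10* at 1.16, *Gbp5* at 0.89 and *Gbp3* at 0.70 are the called genes, and none is among the 36 members.

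Some markers of other cells moved beside these values. Of the markers of interstitial or monocyte-derived macrophages and monocytes, 9 of 14 measured were called higher and 0 lower, led by *Pf4* and *Apoe*. Limma called 0.431% of all genes higher and 0.135% lower, the shares to set beside each marker list here. The mean log2 level of the 14 was 7.02 and 7.08 on the WT arrays and 7.75 and 7.74 on the *Trem-2*-/- arrays. This list did not move as a whole. *Maf*, *Folr2*, *Lyve1*, *Cd163* and *Vcan* were not called, with log2 fold changes of −0.011, −0.0655, −0.094, 0.10 and 0.25. For *Lyve1* both *Trem-2*-/- arrays lay below both WT arrays. Of lung epithelial markers 2 of 13 (*Cldn18* and *Scgb1a1*) were called higher, with mean levels of 6.52 on both WT arrays and 6.91 and 6.90 on the *Trem-2*-/- arrays. The epithelial list was mixed, since 8 markers lay higher on both *Trem-2*-/- arrays and 4 (*Cdh1*, *Sftpb*, *Sftpa1* and *Epcam*) lower. Over all genes 17.4% lay higher in this way and 25.4% lower. *Cdh1* had a log2 fold change of −0.45 ± 0.097 (SE, limma adjusted p = 0.164). Plasmacytoid dendritic cells, the specialists in interferon production, had 0 of 8 markers called by limma, with mean levels of 6.71 and 6.85 in WT AM and 6.77 and 6.80 in *Trem-2*-/- AM. Their defining marker *Siglech* had 5.62 and 5.87 in WT AM and 5.58 and 5.59 in *Trem-2*-/- AM. Neutrophil, T and NK cell, B cell and other dendritic cell markers had no gene called by limma. Of 10 neutrophil markers 8 lay above 0, and 3 (*Csf3r*, *Ltf* and *Mmp8*) lay higher on both *Trem-2*-/- arrays and 0 lower. *Csf3r* had a log2 fold change of 0.64 ± 0.097 (SE, limma adjusted p = 0.0702). The neutrophil markers *S100a8*, *S100a9* and *Ly6g* had 0.020, 0.087 and 0.018, with overlapping arrays. Of 12 AM markers *Car4* and *Fabp1* were called higher and 0 lower, and the defining markers *Pparg*, *Fabp4*, *Chil3*, *Marco*, *Itgax* and *Siglecf* had log2 values above 10 on all 4 arrays. Of the 12, 6 lay above 0 and 6 below, where 42.7% of all genes lay above 0. On both *Trem-2*-/- arrays 5 lay above both WT arrays and 4 (*Krt79*, *Siglecf*, *Itgax* and *Cd9*) below, against 17.4% and 25.4% of all genes. The log2 fold changes were −0.35 ± 0.084 (SE, limma adjusted p = 0.207) for *Krt79* and −0.21 ± 0.077 (SE, limma adjusted p = 0.377) for *Siglecf*. The part of other cells in the values of the interferon-stimulated genes was not tested, and in RNA of mixed cells more cells of a type and more RNA per cell cannot be told apart.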

How the data were processed

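RNA of AM was measured on 4 arrays, 2 per genotype. The authors combined the cell intensity files, normalized them by RMA and deposited log2 values for 35557 probe sets. The submitters' processing notes name RMA and mm9, with no version. RMA makes the distributions of the arrays alike, so a shift shared by most genes would not be seen, and scanner intensities were not used here.

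Probe sets were named through the platform annotation (21797 with 1 symbol), and of several for a gene the brightest was kept. Genotypes were compared by limma 3.58.1 (lmFit, eBayes, R 4.3.3), two-sided, without a filter, block or covariate, at a Benjamini-Hochberg adjusted p of 0.05 over 19946 genes. Code was tested on simulated data. SAM at a false-discovery rate of 5%, named in the methods, was coded here over all 6 assignments of the arrays. Further alternatives were quantile normalization, median centring, averaged probe sets, a mean log2 value of at least 6, omission of each array, a block for the replicate number, robust variance with an intensity trend, and the methods' t-test, named in their general account of statistics. The count of members above 0 under these settings was added after seeing the data.

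Members, other lists and tests were chosen with earlier results of these data known. By rule, array values were given for the 10 members with the largest differences, *Ifit1* and *Irf7*, and pathway genes were named if called or among the 4 largest of a group. Array values of the other members given with them, and further genes given with values (*Ifnb1*, *Jak1*, *Tyk2*, *Sting1*, *Cgas*, *Ifitm1*, *Ifitm2*, *Slfn5*, *Slfn8*, *Gbp3*, *Gbp5* and uncalled markers), were chosen after their values were seen. RefSeq sequence is of GRCm38.p6, another build than mm9, so no probe set coordinates are given.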

Additional observations from a re-analysis of the deposited data

How the results depend on the processing

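Called members numbered 0 in limma, 2 in SAM and 6 in the methods' t-test without adjustment, all higher. They numbered 0 in the t-test after Benjamini-Hochberg and 5 with an intensity trend and robust variance, all higher. Quantile normalization, median centring, averaged probe sets and a block for the replicate number each gave 0. With a mean log2 value of at least 6, 0 of the 25 members tested were called. *Ifit1* and *Rtp4*, the members called by SAM, were not among these 25, so that setting could not call them. Over all genes the main 86 higher and 27 lower became 177 and 19 in SAM, 782 and 1052 in the unadjusted t-test, 0 and 0 after Benjamini-Hochberg, 379 and 290 with the trend, and 207 and 150 with a mean log2 value of at least 6, which tests fewer genes. Omitting an array gave 22 to 43 higher and 4 to 7 lower. Of the other pathway genes, 2 higher and 0 lower became 5 and 0 in SAM, 10 and 5 in the unadjusted t-test, 0 and 0 after Benjamini-Hochberg, 9 and 1 with the trend, 6 and 0 with the filter, and 0 to 2 higher when an array was omitted. What made the counts differ between settings was not tested.

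The labels give replicate numbers but do not say whether arrays of the same number were paired. The correlation of deviations was −0.052 over all genes, and with 2 pairs it cannot decide this. With the replicate number as a block, 98 genes were higher and 31 lower, 0 members were called and 2 pathway genes were higher.

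The members' median log2 fold change lay between 0.068 and 0.18 when an array was omitted, the lowest without WT replicate 2 and the highest without WT replicate 1. Signs turned for the members named here and for no other, but 17 further members moved by more than 1.5 times when an array was omitted. Under quantile normalization *Cmpk2* had 0.044, *Ifit3* 0.044 and *Mx1* 0.0055, and under median centring *Cmpk2* had 0.015 and *Ifit3* 0.015. With an array omitted, *Adar* ranged from −0.027 to 0.18, *Cmpk2* from −0.037 to 0.035, *Dhx58* from −0.037 to 0.060, *Ifit3* from −0.069 to 0.067, *Irf9* from −0.031 to 0.14, *Mx1* from −0.091 to 0.031, *Stat2* from −0.0045 to 0.12, *Usp18* from −0.31 to 0.046 and *Xaf1* from −0.050 to 0.057. Of all member values under the settings run, 424 kept direction and side of the threshold, 13 passed it where the main value had not, and 20 turned. With no detection calls, low signal limits *Mx1*, *Mx2* and *Cmpk2* most.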
